A study of Mus musculus with 8 samples.

Results

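The genes described here are 9 chemokines, Ccl2, Ccl5, Ccl7, Ccl9, Cxcl1, Cxcl5, Cxcl10, Cxcl12 and Cxcl16, together with Il6, which encodes interleukin 6. They were chosen by symbol, 10 of the 22609 gene symbols in the count tables, and all 10 passed the filter on low counts. RNA sequencing had been done on immortalized mouse dental papilla cells, the mesenchymal cells of the tooth germ from which odontoblasts arise, to ask which RNAs differ when Bmp2, a bone morphogenetic protein needed for dentin formation, is deleted. The iBmp2 fx/fx cells carry floxed Bmp2 alleles and the iBmp2 ko/ko cells carry the knock-out, and both lines are immortalized. Each line was cultured for 6, 24, 48 and 72 h, with 1 library for each line at each time, 8 libraries in all.

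Each genotype was represented by a single immortalized line, so a difference between genotypes and a difference between these lines cannot be told apart. The labels name no added cytokine or other stimulus. No source used here says that the libraries came from separate cultures beyond their culture times, and a p-value from these libraries measures only the spread between them.

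Chemokines are small secreted proteins that guide migrating cells through receptors coupled to G proteins, and fibroblasts and other stromal cells are a major source of them in inflamed tissue. Many are switched on by NF-kB downstream of interleukin 1, tumor necrosis factor or Toll-like receptors, and Cxcl10 in addition by interferons. Cxcl12 differs in being made constitutively by mesenchymal cells. Interleukin 6 binds its receptor Il6ra, and this complex recruits Il6st, which activates Jak kinases and Stat3. In inflamed dental pulp these proteins are known for drawing neutrophils, monocytes and T cells.

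The iBmp2 ko/ko library of 24 h stood apart from the other libraries of its line and is kept out of the main comparisons and shown separately for the 10 genes. Over the 13053 genes that passed the filter in all 8 libraries, its root mean square difference from the fx/fx library of 6 h was 0.15 on the log2(CPM + 0.5) scale, where CPM is the read count scaled to the library total. The other 27 pairs of libraries differed by 0.32 to 0.99, and the ko/ko 24 h library differed from the other ko/ko libraries by 0.64 to 0.84. Over the 10 genes, the distance to fx/fx at 6 h was 0.09, against 0.38 to 1.73 for the other pairs. Each of the 10 genes had a CPM in the ko/ko 24 h library that was 0.954 to 1.12 times that at 6 h in fx/fx. For 8 of the 10 genes, all but Ccl7 and Ccl9, this library lay closer to fx/fx at 6 h than to any other library, which held for 47.2% of all genes. The chi-square per gene between these libraries was 5.18, so their counts differed by more than sampling noise. No other pair was below 41.7. The cause was not tested.

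**Figure D1:**
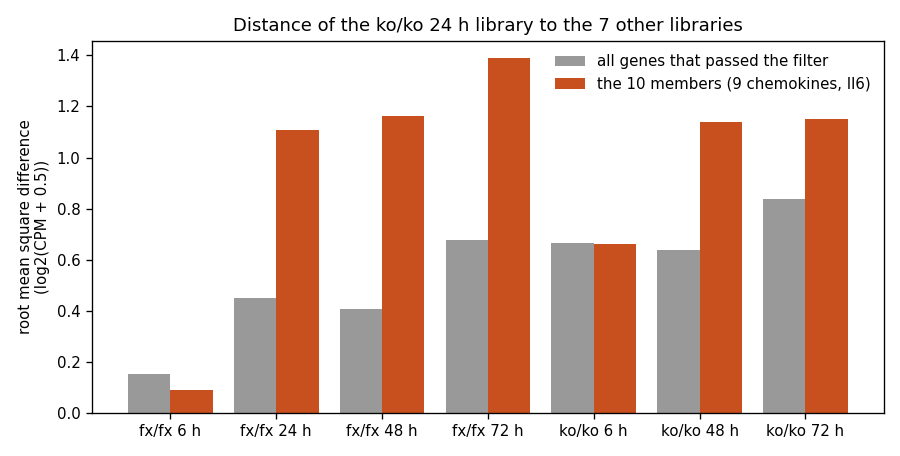
Root mean square difference, on the log2(CPM + 0.5) scale, between the iBmp2 ko/ko 24 h library and each of the 7 other libraries, over all genes that passed the filter (grey) and over the 10 genes described here (orange). The distance to fx/fx at 6 h, 0.15 and 0.09, was the shortest on both measures.

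The libraries held 25890110 to 32415665 reads on genes, and 3 counts corresponded to 0.0925 to 0.116 CPM. Bmp2 itself had 1 read in fx/fx at 24 h and 0 in the other 7 libraries, so the genotype labels could not be checked by it. Of 12 dental mesenchyme markers 10 were expressed in every library, among them Msx1, Msx2, Pax9, Twist1, Runx2, Prrx1 and Vim, whereas Lhx8 and Barx1, transcription factors of the early dental mesenchyme, and Dspp, the odontoblast gene for dentin sialophosphoprotein, had at most 3 counts in each. The odontoblast marker Alpl, alkaline phosphatase, reached 61.7 CPM in fx/fx and was downregulated in the iBmp2 ko/ko cells (log2 fold change -5.61, edgeR adjusted p = 0.0153). Of 11 leukocyte markers, 6 had at most 3 counts in every library, among them Ptprc, which marks all leukocytes. The summed leukocyte marker level was 27.3 to 44.6 CPM in the 3 fx/fx libraries of 6, 48 and 72 h and 27.1 to 45.3 CPM in the ko/ko libraries of those times. Most of it came from Cd14, which stromal cells also express, and the other 2 leukocyte markers tested, Csf1r and Cd68, were lower in ko/ko, at -1.62 and -1.43 on the log2 scale (edgeR adjusted p = 0.186 and 0.262, and 0.0118 and 0.0272 with the replicate block). Markers of other cell types were also lower in ko/ko, with Cspg4 and Des of smooth muscle and pericytes at -2.37 and -1.35, Krt14 of epithelium at -1.38 and Kdr of endothelium at -1.32 (edgeR adjusted p = 0.0441, 0.134, 0.275 and 0.191), while the endothelial Tek was higher, at 1.62 (edgeR adjusted p = 0.246). The replicate block called all 5 at an adjusted p of 0.05. The summed levels of the 3 lists, fx/fx first, were 31.9 to 53.5 and 15.8 to 33.8 CPM for smooth muscle and pericytes, 1.01 to 2.20 and 0.289 to 0.884 CPM for epithelium, and 1.93 to 3.32 and 1.61 to 3.63 CPM for endothelium. The part of these markers in the results was not tested.

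The promoters of Cxcl1, Il6, Cxcl10 and Cxcl12 are shown because the first 3 hold motifs of the factors named above while Cxcl12 holds none. They were chosen with their values over culture time known. Their slopes on culture time, in log2 units per doubling of the hours, were 0.59, 0.61, -0.36 and 0.31. Ccl9, whose promoter held matches and is not shown, had a slope of 0.04. Any link between motifs and slopes was not tested. Of the 10 genes, 5 (Ccl9, Cxcl1, Cxcl10, Cxcl12 and Il6) matched the RefSeq promoter table (GRCm38.p6). The sequences run 5′ to 3′ over the 250 bases before the start site, and capitals mark matches.
Cxcl1, chr5:90890995-90891244, plus strand: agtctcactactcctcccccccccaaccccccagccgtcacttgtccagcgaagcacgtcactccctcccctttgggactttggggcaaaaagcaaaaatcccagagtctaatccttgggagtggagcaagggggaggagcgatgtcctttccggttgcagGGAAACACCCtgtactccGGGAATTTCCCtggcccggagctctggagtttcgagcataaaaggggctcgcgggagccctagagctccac
Il6, chr5:30012864-30013113, plus strand: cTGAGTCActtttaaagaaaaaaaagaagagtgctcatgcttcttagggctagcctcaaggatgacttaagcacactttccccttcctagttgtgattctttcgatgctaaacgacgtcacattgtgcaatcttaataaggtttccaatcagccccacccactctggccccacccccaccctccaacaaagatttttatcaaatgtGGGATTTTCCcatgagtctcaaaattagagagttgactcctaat
Cxcl10, chr5:92348890-92349139, minus strand: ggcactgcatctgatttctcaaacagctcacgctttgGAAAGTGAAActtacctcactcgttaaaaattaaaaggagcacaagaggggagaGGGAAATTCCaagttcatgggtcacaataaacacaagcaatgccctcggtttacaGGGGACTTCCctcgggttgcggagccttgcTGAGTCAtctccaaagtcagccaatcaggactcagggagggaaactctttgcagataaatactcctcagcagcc
Cxcl12, chr6:117168285-117168534, plus strand: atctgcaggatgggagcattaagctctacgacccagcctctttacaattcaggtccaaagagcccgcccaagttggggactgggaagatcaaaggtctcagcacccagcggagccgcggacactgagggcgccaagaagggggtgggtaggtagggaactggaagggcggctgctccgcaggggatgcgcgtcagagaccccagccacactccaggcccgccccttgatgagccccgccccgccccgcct

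The motifs searched on both strands were an NF-kB motif (GGG, any 3 bases, TTCC), an interferon-response motif (GAAA, any 2 bases, GAAA) and the AP-1 motif TGANTCA. They were found in 4.65%, 2.98% and 6.75% of 32851 promoters of the same length. Cxcl1 held 3 matches to the NF-kB motif, of which the 2 nearest the start overlapped on opposite strands, from 71 to 61 bases before it. Il6 held 1 NF-kB match, 44 to 35 bases before the start, and an AP-1 match at the far end of the window. Cxcl10 held 2 NF-kB matches, 1 interferon-response match and 1 AP-1 match. Ccl9 held 1 NF-kB match and 1 AP-1 match. None of the 3 motifs occurred in the Cxcl12 window, which says only that these letters are not in it, and a match is a description of sequence and not a bound site.

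In the mm9 build used by the count tables, the genes lie in a few clusters. Cxcl5 (chr5:91188325-91190651), Cxcl1 (chr5:91320267-91322141) and Cxcl10 (chr5:92775664-92777915) share a region of chromosome 5, and Il6 lies elsewhere on it (chr5:30339701-30346508). Ccl2 (chr11:81849073-81850955) and Ccl7 (chr11:81859214-81861027) are neighbours on chromosome 11, as are Ccl5 (chr11:83339280-83344020) and Ccl9 (chr11:83386421-83392138). Cxcl16 lies at chr11:70267485-70273486 and Cxcl12 at chr6:117118553-117131385. Cxcl10 shares 133 exonic bases with Art3 and Cxcl16 shares 552 with Zmynd15, both on the opposite strand. The strand setting of the counting was not given in the sources used here, so reads of these partners could not be told apart from those of Cxcl10 and Cxcl16.

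Per length, Cxcl5 was the most abundant of the 10, with a median of 466 RPKM (CPM per kilobase of exon) over the 7 libraries other than ko/ko at 24 h, and a range of 103 to 695. Ccl2 followed at 323 (193 to 510), Ccl7 at 317 (169 to 498) and Cxcl1 at 298 (85.3 to 621). Cxcl12 had 99.9 RPKM (45.3 to 132) and Cxcl10 had 52.4 (28.9 to 159). Ccl5 stood at 17.9 RPKM (13.2 to 29.9), Il6 at 7.69 (1.29 to 10.5), Ccl9 at 6.05 (4.50 to 13.0) and Cxcl16 at 3.71 (1.79 to 5.82). This order by median did not hold at every culture time. At 6 h Ccl2 (193 RPKM in fx/fx and 278 in ko/ko) and Ccl7 (169 and 172) lay above Cxcl5 (132 and 103). The ranges of neighbours in the order by median overlapped except those of Ccl5 and Il6. Those of Cxcl10 and Ccl5 met only at their ends (28.9 and 29.9), and Il6, Ccl9 and Cxcl16 lay below the other 7 genes in every one of these libraries.

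The first comparison asked how each gene changed with culture time in the 7 libraries other than ko/ko at 24 h, and the genes that attract neutrophils and Il6 spanned the widest ranges. Cxcl1 and Cxcl5, which act on neutrophils through Cxcr2, were at their lowest at 6 h and their highest at 72 h in both lines. Ccl2, Ccl7, Cxcl12 and Il6 were also lowest at 6 h in both lines, whereas Cxcl10 was highest at 6 h in both. The slope on culture time was fitted over the 7 libraries with the line as a covariate, in log2 units per doubling of the hours, with the quasi-likelihood test of edgeR and p-values adjusted by Benjamini-Hochberg over 13208 genes.

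By that edgeR test, 0 of the 10 genes passed an adjusted p of 0.05, as did 0% of all genes. At an unadjusted p under 0.05, edgeR's test marked 6 of the 10, which compares with 26.1% of all genes. Ccl7, Cxcl1, Cxcl5, Cxcl12 and Il6 were among the rising ones (background 14.7%), and Cxcl10 was the falling one (background 11.4%). DESeq2 with its adjusted p at most 0.05 called those 5 rising genes (background 7.55%) and Cxcl10 (background 5.27%), 6 of 10 against 12.8% of all genes. The median slope of the 10 was 0.24, against 0.01 for all genes. The calls for time therefore depended on the tool.

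**Figure D2:**
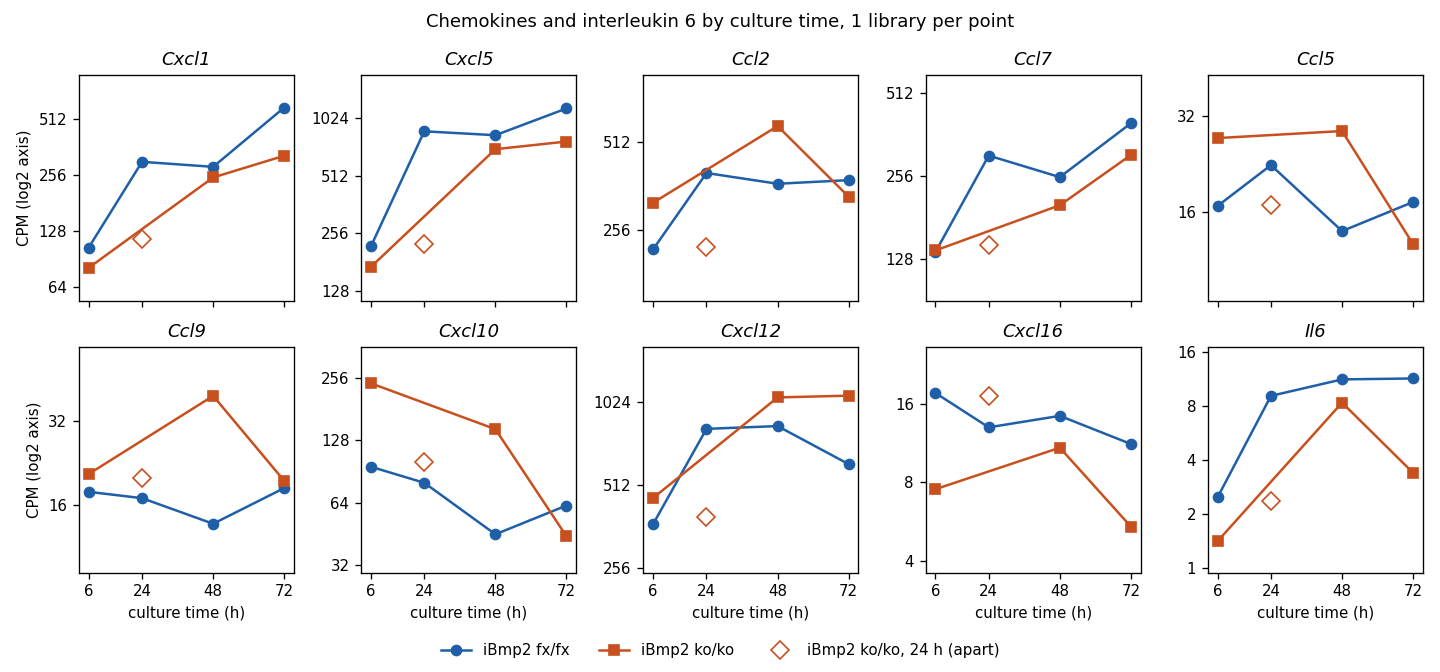
CPM of the 10 genes (log2 axis, scaled for each gene) against culture time in hours, with 1 library per point, blue circles for iBmp2 fx/fx and orange squares for iBmp2 ko/ko. The ko/ko 24 h library is an open diamond joined to no line, and it lies at the level of fx/fx at 6 h. Cxcl1 and Cxcl5 are lowest at 6 h and highest at 72 h in both lines, and Cxcl10 is highest at 6 h.

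At 6, 24, 48 and 72 h in fx/fx, Cxcl1 had 104, 302, 284 and 592 CPM. The ko/ko values were 81.3, 249 and 326 CPM at 6, 48 and 72 h, and 116 in the 24 h library. The level at 72 h was 5.67 times that at 6 h in fx/fx and 4.01 times in ko/ko, and the 6 h libraries lay below all the later ones of these 7. The slope was 0.59 ± 0.08 (SE), with an adjusted p of 0.0918 in edgeR and 4.07e-11 in DESeq2.

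Cxcl5 had 219, 873, 833 and 1150 CPM in fx/fx at the 4 times. In ko/ko it had 171, 704 and 772 CPM at 6, 48 and 72 h, and 224 in the 24 h library. In fx/fx most of its rise lay between 6 and 24 h, whereas for Cxcl1 the step from 48 to 72 h was the wider in CPM. The values of 24 and 48 h were close together for both genes. The ratio of 72 to 6 h was 5.26 in fx/fx and 4.53 in ko/ko. The Cxcl5 slope was 0.64 ± 0.09 (SE), with an adjusted p of 0.0918 in edgeR and 1.11e-11 in DESeq2.

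Il6 was counted at a far lower level, with 79, 257, 364 and 349 reads at 6, 24, 48 and 72 h in fx/fx, or 2.48, 9.12, 11.3 and 11.4 CPM. The ko/ko libraries held 43, 258 and 82 reads at 6, 48 and 72 h, or 1.41, 8.36 and 3.39 CPM, and 63 reads (2.36 CPM) in the 24 h library. Il6 was thus lowest at 6 h in both lines, and in ko/ko its highest value was at 48 h and not at 72 h. The Il6 slope was 0.61 ± 0.16 (SE), with an adjusted p of 0.119 in edgeR and 0.00111 in DESeq2.

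Ccl2 and Ccl7 encode monocyte attractants that act through Ccr2. Ccl7 had 136, 304, 254 and 399 CPM at 6, 24, 48 and 72 h in fx/fx. Its ko/ko values were 138, 201 and 306 CPM at 6, 48 and 72 h, and 145 in the 24 h library. The lines started at the same level and Ccl7 was 2.94 times higher at 72 h than at 6 h in fx/fx and 2.22 times in ko/ko, with a slope of 0.33 ± 0.07 (SE; adjusted p of 0.110 in edgeR and 0.00159 in DESeq2).

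Ccl2 had 219 CPM at 6 h and then 400.4, 368 and 378 CPM at 24, 48 and 72 h in fx/fx. In ko/ko it had 317, 580.4 and 332 CPM at 6, 48 and 72 h, and 223 in the 24 h library. Unlike its neighbour Ccl7, it ended near its starting level in ko/ko, at 1.05 times the 6 h value, against 1.73 times in fx/fx. The Ccl2 slope of 0.17 ± 0.09 (SE) did not pass in edgeR (adjusted p = 0.245) or DESeq2 (adjusted p = 0.177), and it was 0.083 without fx/fx at 6 h.

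Cxcl12, which holds progenitor cells in their niche through Cxcr4, had 370.0, 817, 836 and 609 CPM in fx/fx at the 4 times. In the ko/ko line it had 459.6, 1061 and 1077 CPM at 6, 48 and 72 h, and 392 in the 24 h library. Without the ko/ko 24 h library it was lowest at 6 h in both lines, and at 72 h it was 1.65 times that level in fx/fx and 2.34 times in ko/ko. The Cxcl12 slope was 0.31 ± 0.09 (SE), with an adjusted p of 0.120 in edgeR and 0.00596 in DESeq2.

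Cxcl10, an interferon-induced attractant of T cells that acts through Cxcr3, had 95.3, 79.7, 44.9 and 61.9 CPM at 6, 24, 48 and 72 h in fx/fx. In ko/ko it had 242, 145 and 43.9 CPM at 6, 48 and 72 h, and 101 in the 24 h library. Unlike Cxcl1 and Cxcl5 it was lower at 72 h than at 6 h, at 0.649 times the 6 h level in fx/fx and 0.182 times in ko/ko. The Cxcl10 slope was -0.36 ± 0.12 (SE), with an adjusted p of 0.146 in edgeR and 0.0367 in DESeq2.

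The other 3 genes did not pass any of these rules for time. Ccl5, a T cell attractant, had 16.7, 22.4, 13.9 and 17.2 CPM in fx/fx at the 4 times, and 27.3, 28.7 and 12.7 CPM in ko/ko at 6, 48 and 72 h, with 16.9 in the 24 h library. Ccl9, a myeloid cell attractant that acts through Ccr1, had 17.8, 16.9, 13.7 and 18.4 CPM in fx/fx and 20.7, 39.5 and 19.5 CPM in ko/ko, with 20.03 in the 24 h library. Cxcl16, made as a membrane protein and shed by Adam10, had 17.6, 13.0, 14.4 and 11.2 CPM in fx/fx and 7.53, 10.9 and 5.41 CPM in ko/ko, with 17.1 in the 24 h library. Their slopes were -0.10 ± 0.10, 0.04 ± 0.10 and -0.08 ± 0.09 (SE), with adjusted p-values of 0.550, 0.806 and 0.571 in edgeR. Leaving out 1 library moved the Ccl5 slope between -0.20 (without fx/fx at 6 h) and -0.0077 (without ko/ko at 72 h), and the Cxcl16 slope between -0.18 (without ko/ko at 6 h) and -0.031 (without ko/ko at 72 h).

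**Figure D3:**
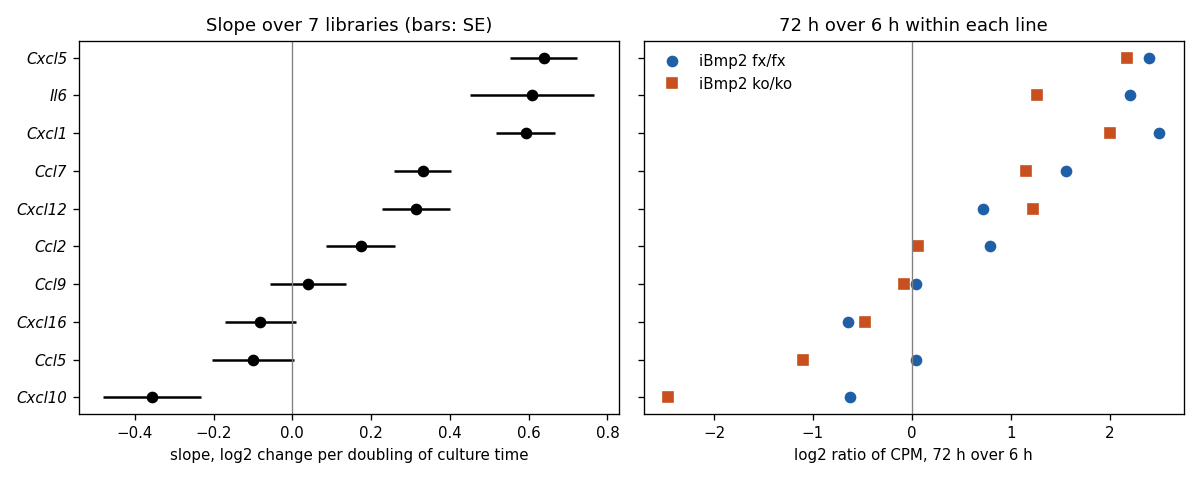
Left, slope of each gene in log2 units per doubling of culture time over 7 libraries, with SE bars. Right, log2 ratio of CPM at 72 h over 6 h in iBmp2 fx/fx (blue circles) and iBmp2 ko/ko (orange squares), 1 library each. Cxcl5, Il6 and Cxcl1 have the steepest slopes of the 10, from 0.59 to 0.64, and Cxcl10 the lowest at -0.36.

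Leaving out the ko/ko 48 h library brought Ccl7, Cxcl1, Cxcl5 and Il6 past an adjusted p of 0.05 in edgeR (0.0449, 0.0270, 0.0270 and 0.0463), in a fit that called 1069 genes in all. Adding the ko/ko 24 h library left the slopes of Cxcl1 and Cxcl5 at 0.59 and 0.65, with an adjusted p of 0.108 for each in edgeR. Over every fit run for time, the lowest adjusted p of each of the 6 genes DESeq2 called was the DESeq2 value given above, and the highest was 0.634, in edgeR without ko/ko at 6 h.

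Whether the slope on time differed between the lines was tested by an interaction term in the same 7 libraries. By edgeR, 0 of the 10 genes passed an adjusted p of 0.05, and 0 did at an unadjusted p under 0.05, which 1.01% of all genes passed, while DESeq2 called 0 of the 10 and 1 gene of all. The differences in slope, ko/ko less fx/fx, ran from -0.27 for Cxcl10 to 0.13 for Ccl9, with unadjusted p-values in the edgeR fit of 0.323 to 0.882. With 3 ko/ko libraries these values do not show that the courses were alike.

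The second comparison asked which genes differed between iBmp2 ko/ko and iBmp2 fx/fx cells over the libraries of 6, 48 and 72 h. No gene of the 10 was upregulated or downregulated in the iBmp2 ko/ko cells by the edgeR test with an adjusted p of 0.05 and a 2-fold change, 0 of 10 against 2.19% of all 13121 genes. At an unadjusted p under 0.05 with a change over 2-fold, edgeR's test again marked 0 of 10, against 7.35% of all genes. By the adjusted 2-fold rule DESeq2 called none of the 10, against 5.02% of all genes. By that rule limma also called none, against 285 genes of all on log2(CPM + 0.5) and 273 on log2(RPKM + 0.1). At an unadjusted p under 0.05 of any size edgeR marked 1 of 10, Cxcl16, against 14% of all genes. Of the 10 log2 fold changes, 5 were above 0 and 5 below, with a median of 0.02 against 0.03 for all genes.

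Cxcl16 and Ccl9 were the only ones of the 10 whose 3 ko/ko and 3 fx/fx values did not overlap, 2 of 10 against 20% of all genes. Cxcl16 averaged 14.4 ± 3.19 CPM in fx/fx and 7.93 ± 2.75 in ko/ko (SD, n = 3 libraries each), a log2 fold change of -0.86 ± 0.33 (SE; edgeR adjusted p = 0.310). Ccl9 averaged 16.7 ± 2.58 CPM in fx/fx and 26.6 ± 11.2 in ko/ko (SD, n = 3), a log2 fold change of 0.67 ± 0.33 (SE; edgeR adjusted p = 0.426). The 48 h library set most of the Ccl9 difference, since the lines were 0.21 and 0.09 log2 units apart at 6 and 72 h and 1.53 at 48 h. Without the ko/ko 48 h library the Ccl9 log2 fold change was 0.26.

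Cxcl10 had a log2 fold change of 1.11 ± 0.59 (SE; edgeR adjusted p = 0.477), with 67.4 ± 25.7 CPM in fx/fx and 144 ± 98.9 in ko/ko (SD, n = 3). It was higher in ko/ko by 1.34 log2 units at 6 h and 1.69 at 48 h, and lower by 0.49 at 72 h (log2 ratio of -0.49). Leaving out 1 library moved its log2 fold change between 0.48 (without ko/ko at 6 h) and 1.52 (without ko/ko at 72 h). The Ccl5 difference had the same signs, with log2 ratios of 0.71, 1.04 and -0.44 at 6, 48 and 72 h and a log2 fold change of 0.53 ± 0.34 (SE; edgeR adjusted p = 0.571), which leaving out 1 library moved between 0.32 (without ko/ko at 48 h) and 0.81 (without ko/ko at 72 h). Ccl2 likewise had ratios of 0.53, 0.66 and -0.19 and a log2 fold change of 0.35 ± 0.33 (SE; edgeR adjusted p = 0.726).

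Cxcl1, Cxcl5 and Il6 were each lower in ko/ko than in fx/fx at 6, 48 and 72 h. For Cxcl1 the log2 ratios were -0.36, -0.19 and -0.86, and the mean was 327 ± 247 CPM in fx/fx and 219 ± 125 in ko/ko (SD, n = 3). For Cxcl5 they were -0.36, -0.24 and -0.58, with means of 734 ± 474 and 549 ± 329 CPM. For Il6 they were -0.82, -0.43 and -1.75, with means of 8.39 ± 5.12 and 4.39 ± 3.58 CPM. For Cxcl1 and Cxcl5 the SD over culture times within each line was wider than the distance between the means of the lines, and for Il6 it was so in fx/fx. The log2 fold changes of -0.60 ± 0.68, -0.44 ± 0.70 and -0.94 ± 0.76 (SE) had adjusted p-values of 0.775, 0.850 and 0.670 in edgeR. Leaving out 1 library moved the Il6 value from -1.84 (without ko/ko at 48 h) to -0.52 (without ko/ko at 6 h). Ccl7 was level at 6 h (0.02) and lower in ko/ko at 48 and 72 h (-0.34 and -0.38), with a log2 fold change of -0.31 ± 0.43 (SE; edgeR adjusted p = 0.823).

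Cxcl12 was higher in ko/ko at all 3 times, by 0.31, 0.34 and 0.82 log2 units, with means of 605 ± 233 CPM in fx/fx and 866 ± 352 in ko/ko (SD, n = 3) and a log2 fold change of 0.51 ± 0.41 (SE; edgeR adjusted p = 0.665). Leaving out 1 library moved it between 0.24 (without fx/fx at 6 h) and 0.80 (without ko/ko at 6 h). In all, 6 of the 10 genes (Ccl9, Cxcl1, Cxcl5, Cxcl12, Cxcl16 and Il6) kept 1 sign at these 3 times, against 57.5% of all genes.

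**Figure D4:**
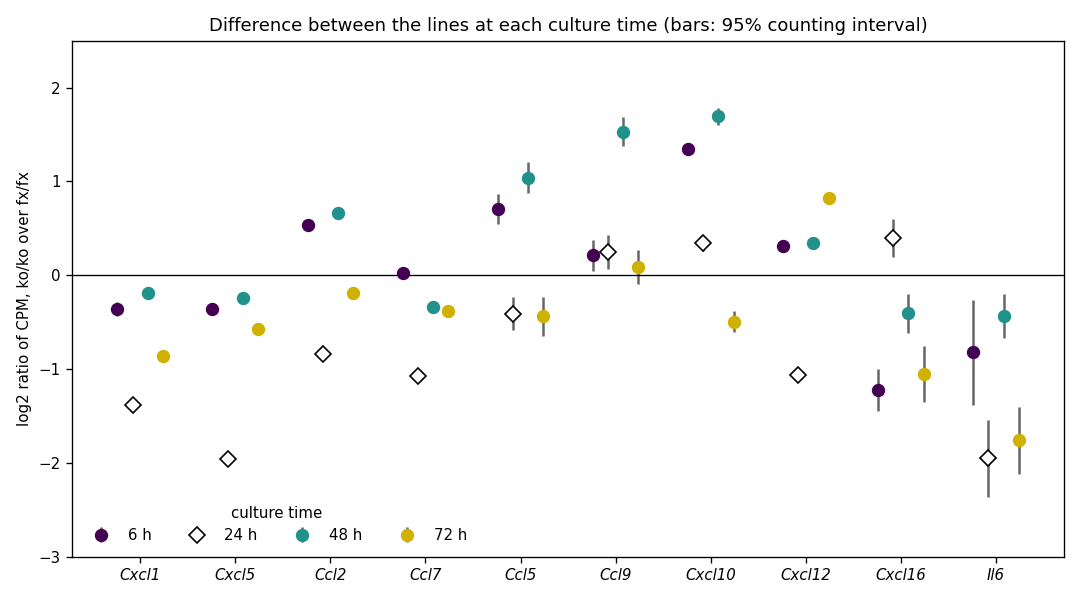
Log2 ratio of CPM, iBmp2 ko/ko over iBmp2 fx/fx, for each gene at 6, 48 and 72 h (filled circles) and at 24 h (open diamonds), 1 library per line and time, with bars for the exact 95% interval of counting error alone. The ratios at 24 h are the most negative of the 4 for Cxcl1, Cxcl5, Ccl2, Ccl7, Cxcl12 and Il6, and Cxcl16 is above 0 only at 24 h.

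When culture time was added as a replicate block, which compares the lines within each time, 3 of the 10 passed an adjusted p of 0.05 in edgeR with no limit on size, against 22.7% of all genes. Cxcl12 was higher in the iBmp2 ko/ko cells by 0.49 ± 0.13 on the log2 scale (SE; edgeR adjusted p = 0.0312; background 11.3%). Cxcl16 was lower, at -0.89 ± 0.20 (SE; edgeR adjusted p = 0.0186), as was Il6, at -0.996 ± 0.29 (SE; edgeR adjusted p = 0.0440), against 11.4% of all genes that were lower. None of the 3 reached a 2-fold change, which with the adjusted p of 0.05 was met by 8.45% of all genes. Cxcl5 and Cxcl1 came next, at -0.40 ± 0.13 and -0.48 ± 0.16 (SE), with adjusted p-values of 0.0578 and 0.0655 in edgeR. With all 8 libraries in the blocked fit, Cxcl12 was at 0.12, Cxcl16 at -0.57 and Il6 at -1.23, with adjusted p-values of 0.834, 0.261 and 0.103 in edgeR, so these calls did not hold with the ko/ko 24 h library. Over every fit run for genotype, leave-one-out fits included, the adjusted p ranged from 0.0312 to 0.884 for Cxcl12, from 0.0186 to 0.676 for Cxcl16 and from 0.0440 to 0.952 for Il6 (edgeR, DESeq2 and limma).

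At single times there was 1 library in each line and no test was possible. The genes past 2-fold at 6 h were Cxcl10 and Cxcl16 (2 of 10, against 9.47% of all genes), at 48 h Ccl5, Ccl9 and Cxcl10 (3 of 10, against 8.79%) and at 72 h Cxcl16 and Il6 (2 of 10, against 6.31%). At 24 h they were Ccl7, Cxcl1, Cxcl5, Cxcl12 and Il6 (5 of 10, against 3.99%), all lower in the ko/ko library. All 5, like Ccl2, were lowest at 6 h in fx/fx, and the ko/ko 24 h library held them near those levels.

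Most other chemokine ligands were hardly detected. Of 32 in the table, 19 had at most 3 counts in every library, among them Ccl3 and Ccl4, and only 8 passed the filter for the genotype test. By the adjusted 2-fold rule edgeR called 0 of the 8 for genotype and DESeq2 called 2. That rule was met by 2.19% of all genes in edgeR and 5.02% in DESeq2, here and for the lists below. The unadjusted 2-fold rule marked 3, namely Ccl8 and Ccl27a as higher and Cx3cl1 as lower in ko/ko, the last 2 named after their values were seen (background 7.35%). The replicate block called 3 as higher and 1 as lower in ko/ko at any size, against 11.3% and 11.4% of all genes. Ccl8, encoded in the same cluster as Ccl2 and Ccl7, had 2.20, 3.22 and 1.44 CPM in fx/fx at 6, 48 and 72 h and 8.38, 29.3 and 9.58 in ko/ko. At 24 h the order was the other way, with 5.29 CPM in fx/fx and 3.11 in the ko/ko library. The groups of 6, 48 and 72 h did not overlap, and the log2 fold change was 2.79 ± 0.59 (SE; edgeR adjusted p = 0.0675, and 0.000780 with the replicate block). Cxcl9, an interferon-induced neighbour of Cxcl10, had a log2 fold change of 1.84 ± 0.97 (SE; edgeR adjusted p = 0.470, and 0.0283 with the replicate block).

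Most receptors of these ligands were near or under the floor. Of 23 chemokine receptors 11 had at most 3 counts in every library, including Ccr2 and Cxcr2. Of the 5 that passed the filter edgeR called 0 for genotype by the adjusted or the unadjusted 2-fold rule (background 2.19% and 7.35%). DESeq2 also called 0 (background 5.02%). With the replicate block 2 of the 5 were called as higher in ko/ko at any size (background 11.3%), Cxcr7 at 0.73 and Ccrl2 at 1.18 on the log2 scale (edgeR adjusted p = 0.0424 and 0.0320). Cxcr4, the signalling receptor of Cxcl12, had at most 0.496 CPM in any library. The alternative Cxcl12 receptor Cxcr7 had 1.19, 6.78, 4.43 and 9.32 CPM in fx/fx at the 4 times and 2.78, 6.32 and 14.2 in ko/ko at 6, 48 and 72 h, with 1.13 in the 24 h library. Cxcr7 was lowest at 6 h in both lines, leaving aside the ko/ko 24 h library, as Cxcl12 was, and its slope was 0.65 on the log2 scale per doubling of time, with an adjusted p of 0.110 in edgeR, and it was the 1 of these 5 receptors that DESeq2 called as rising (background 7.55%).

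The receptor chain of interleukin 6 was present in all libraries. Il6ra had 17.2 to 31.7 CPM over the 8 libraries and Il6st 178 to 438. Of 16 genes of the interleukin 6 family and its receptors 13 passed the filter, edgeR called 0 for genotype by the adjusted rule and 3 as lower in ko/ko by the unadjusted rule (background 7.35% in either direction), and DESeq2 called 3 as lower (background 5.02%). The replicate block called 1 as higher and 5 as lower at any size (background 11.3% and 11.4%). Over time DESeq2 called 4 as rising (background 7.55%). Ctf1, cardiotrophin, had a log2 fold change of -1.15 ± 0.31 (SE; edgeR adjusted p = 0.151, and 0.0170 with the replicate block). Of 14 Jak, Stat and Socs genes, all of which passed the filter, edgeR called 0 for genotype by the adjusted rule and 2 as higher in ko/ko by the unadjusted rule (background 7.35%), DESeq2 called 1 (background 5.02%), and the replicate block called 2 as higher and 1 as lower at any size (background 11.3% and 11.4%). Over time DESeq2 called 4 as rising and 1 as falling (background 7.55% and 5.27%). Stat2, which carries interferon signals, was at 1.40 ± 0.58 on the log2 scale (SE; edgeR adjusted p = 0.340, and 0.00239 with the replicate block).

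All 19 NF-kB subunits, inhibitors and kinases passed the filter. Of these, edgeR called 0 by the adjusted 2-fold rule (background 2.19%) and 0 by the unadjusted rule (7.35%), and DESeq2 called 0 (5.02%). The replicate block called 3 as higher and 3 as lower at any size (background 11.3% and 11.4%). Their median log2 fold change was 0.19, against 0.03 for all genes. Rel, an NF-kB subunit, was at -1.07 ± 0.52 and Ikbkg, a kinase subunit, at -0.89 ± 0.40 (SE; edgeR adjusted p = 0.429 and 0.384), and with the replicate block Rel was at -1.24 (edgeR adjusted p = 0.0302) and Ikbkg at -0.87 (0.00338). Tnf, Il1b, Ifng and Il17a, ligands that induce several of the 10 genes, had at most 3 counts in every library. Il1a and Ifnb1, also ligands of this list, did not pass the filter but went above 3 counts. Il1a had 10 and 7 counts in fx/fx at 48 and 72 h and 1 at each time in ko/ko. Ifnb1 had 0 counts in fx/fx and 9 in ko/ko at 48 h. Of 15 tested genes among inducing cytokines and their receptors edgeR called 0 by the adjusted rule and 1 by the unadjusted rule (background 7.35%), DESeq2 1 (background 5.02%), and the replicate block 3 as higher and 3 as lower at any size (background 11.3% and 11.4%). Tlr3 was at 1.67 ± 0.51 and Tlr2 at -0.99 ± 0.56 (SE; edgeR adjusted p = 0.198 and 0.502, and 0.00730 and 0.00149 with the replicate block).

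The interferon response genes beside Cxcl10 were all above 0 in log2 fold change, 12 of 12, with a median of 1.81 against 0.03 for all genes. By edgeR 0 of the 12 were called with the adjusted p (4 by DESeq2, background 5.02%), 8 were marked by the unadjusted 2-fold rule (background 7.35%), and all 12 were called as higher with the replicate block at any size (background 11.3%). Over time DESeq2 called 0 as rising and 5 as falling (background 5.27%). Ifit3 was at 3.40 ± 1.05 and Mx1 at 3.20 ± 1.10 (SE; edgeR adjusted p = 0.207 and 0.253, and 0.000529 and 0.00202 with the replicate block). Cxcl10 had a higher level in ko/ko at 6 and 48 h but not at 72 h. Ifit3 had 4.68 CPM in fx/fx and 37.5 in ko/ko at 72 h. Ifit2 (44.8 and 55.0 CPM, fx/fx first) and Irf1 (77.8 and 91.6 CPM) differed less at that time, and Cxcl9 had 5 reads in each line.

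Among 13 tested inflammatory genes of stromal cells, edgeR called 1 up and 1 down for genotype with the adjusted p and 2-fold rule (background 2.19%). DESeq2 called 1 up and 2 down (background 5.02%), and the replicate block 4 up and 3 down at any size (background 11.3% and 11.4%). The gene called up was Mmp3, a stromelysin, with 2, 5 and 4 reads in fx/fx and 38, 74 and 23 in ko/ko at 6, 48 and 72 h, so it passed the filter only through the ko/ko libraries and its fold is imprecise (edgeR adjusted p = 0.0252). Ptges, a prostaglandin E synthase, was the gene called down and is named after its value was seen, at -1.47 ± 0.20 (SE; edgeR adjusted p = 0.0165). The lists of mRNA decay factors and sheddases and of glucocorticoid response genes had 8 and 7 tested genes. For genotype edgeR called 0 in either list by the adjusted or the unadjusted rule (background 2.19% and 7.35%), and DESeq2 called 0 (background 5.02%). The replicate block called 3 decay factors or sheddases as lower (background 11.4%) and 1 glucocorticoid response gene as higher in ko/ko (background 11.3%) at any size. Adam17, which sheds cell surface proteins, was at -0.48 ± 0.24 and Tsc22d3, a glucocorticoid target, at 0.67 ± 0.32 (SE; edgeR adjusted p = 0.446 and 0.418, and 0.0343 and 0.00733 with the replicate block). Tsc22d3 was the only 1 of the 7 glucocorticoid response genes above 0, and the median of that list was -0.17. Of the 8 decay factors and sheddases 1 was above 0, with a median of -0.28.

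For the 4 genes with a range of at least 2 log2 units over the 7 libraries, the genes with the most similar profiles were sought. The measure was the root mean square difference of centred log2(CPM + 0.5). Cxcl1 was closest to Ptx3 (0.18), Per2 (0.23) and Cxcl5 (0.23), and Cxcl5 to Ces2e (0.20), Ptx3 (0.22) and Cxcl1 (0.23). Cxcl1 and Cxcl5 were thus among each other's 3 nearest of all genes tested. Cxcl10 was closest to Cxcl9 (0.24), Upk3b (0.31) and Ip6k3 (0.31), and among the other 9 genes to Ccl5 (0.50). Cxcl9 had only 5 to 80 reads a library, so the offset of 0.5 CPM weighs on its profile. Il6 was closest to Fabp4 (0.30), Fgf7 (0.31) and Ch25h (0.32), and among the other 9 to Cxcl5 (0.47). All 7 points of each profile come from the same libraries, and these distances are descriptions without a test.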

How the data were processed

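RNA was extracted by the authors from cells harvested at the stated times, and TruSeq libraries were sequenced on an Illumina HiSeq. According to the submitters' processing notes and the study's methods, CASAVA 1.8.2, TopHat2 2.0.8b, mm9 and HTSeq (version not given in the sources used here) were used. The labels give single-end reads and the study's methods paired reads, and the series design gives 8 h where the labels give 6 h. The labels were followed. The deposited gene tables hold raw read counts per gene symbol, with no normalization by the authors. The 5 HTSeq counters were left out, among them alignments that were not unique, 41.3 to 49.6% of each table's total, so reads shared by near-identical genes were not counted. The lncRNA tables were not used here.

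Counts were scaled by TMM and tested with edgeR 4.0.16 (quasi-likelihood, filterByExpr at 10 counts, Benjamini-Hochberg adjustment over all genes tested) in R 4.3.3, with DESeq2 1.42.0 and limma 3.58.1 as alternatives, all tested on simulated data. A call for genotype required an adjusted p of at most 0.05 and an absolute log2 fold change of at least 1, and a second rule used the unadjusted p. Genotype was fitted on the 6 libraries of 6, 48 and 72 h, and culture time, as log2 hours, on 7 libraries without ko/ko at 24 h. RPKM used exon lengths of GENCODE M1, which matched 95.7% of symbols. Intervals and floors (3 counts) cover counting error only. From each gene list, the 2 tested genes with the largest absolute log2 fold change for genotype were named, and others were named for their role or after their values were seen, and some genes of these lists are not reported here. The genes and lists were chosen with earlier results of these data known.

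The deviations of a library from its line's mean were correlated between the lines at equal culture times, with values of 0.73, 0.57 and 0.87 at 6, 48 and 72 h, so culture time pairs the libraries.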

Additional observations from a re-analysis of the deposited data

Results flagged for a closer look

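Ccl9 in the iBmp2 ko/ko line had 39.5 CPM at 48 h, far above the other 3 ko/ko libraries, which held 19.5 to 20.7 CPM. This gap was beyond Dixon's 95% limit for 4 values, and 20 such groups of 4 libraries were examined, of which chance marks about 1 in 20. The 4 libraries differ in culture time, so they are not replicates of 1 state. They include the ko/ko 24 h library (20.03 CPM), which is kept out of the main comparisons.

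The 24 h ratio of ko/ko to fx/fx went against the other 3 times for 2 of the 10 genes, against 26.1% of all genes. For Cxcl12 the log2 ratio was -1.06 at 24 h and 0.31, 0.34 and 0.82 at 6, 48 and 72 h. For Cxcl16 it was 0.40 at 24 h and -1.22, -0.41 and -1.05 at the other times. These differences were not tested, since each ratio rests on 1 library per line.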

How the results depend on the processing

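The count of genes called for genotype was 287, and it was 0 with all 8 libraries, 37 with all 8 and a replicate block, 1109 with the replicate block on 6 libraries, 659 with DESeq2 and 144 with at least 10 counts in every library. Leaving out 1 library at a time gave 9 to 378 calls, with 9 without ko/ko at 48 h, 14 without fx/fx at 48 h, 88 without fx/fx at 6 h, 90 without ko/ko at 6 h and 159 without fx/fx at 72 h. The unadjusted 2-fold rule gave 964 genes and 463 with all 8 libraries. For culture time the count of 0 became 1 with all 8 libraries, 1693 with DESeq2, 16 with no filter and 0 to 1069 on leaving out 1 library, the 1069 without ko/ko at 48 h. For the interaction the count of 0 became 1 with DESeq2. The causes were not tested.

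For the 10 genes, 97 of 100 alternative genotype values kept their direction and their side of the adjusted p of 0.05, and the 3 that newly passed were those of Cxcl12, Cxcl16 and Il6 under the replicate block, the paired fit, which changed no other call of the 10. Leaving out 1 library moved the log2 fold change of Ccl2 between -0.0044 and 0.49, of Ccl7 between -0.64 and 0.13, of Cxcl1 between -1.04 and 0.16 and of Cxcl5 between -0.89 and 0.052. Ccl2 turned below 0 without ko/ko at 48 h, and the other 3 turned above 0 without fx/fx at 72 h. The genotype fits that left out 1 library had no term for culture time, so the lines then held unequal sets of times. Within times, Cxcl1 and Cxcl5 were lower in ko/ko at each of 6, 48 and 72 h. The Ccl9 slope on time lay between -0.065 and 0.095, and was below 0 without ko/ko at 6 h (-0.065) or at 48 h (-0.025). With no filter, Cxcl1 and Cxcl5 passed for time in edgeR (adjusted p = 0.0471 for each). Each line had 3 libraries that differ in culture time, and Il6 rested on 43 to 364 reads a library.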
